A study of Mus musculus with 8 samples.

Results

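The genes described here are those of glycolysis and of the cellular response to low oxygen, compared between AML12 cells with stable expression of Zfp125 (4 arrays) and AML12 cells with the empty vector, EV (4 arrays). AML12 is a mouse hepatocyte line, and Zfp125 encodes a zinc finger protein. G418 selection and control medium were common to both kinds of cell, and their total RNA was hybridised to Affymetrix MoGene 2.0 ST arrays. The labels name neither the vector's promoter nor whether the arrays of a group are separate cultures or clones, so p-values measure the spread between these arrays, which may be technical.

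The members are 35 genes, and each transcript cluster, the array's unit of measurement, whose platform annotation gives a member symbol alone or with others was taken. This gave 53 of the 41345 clusters of the table, for 33 of the 35 genes. Gpi1 and Eno1 had no cluster under these symbols, so their expression is not analysed here. The 33 genes fall into 12 glycolytic enzymes with 24 clusters, 5 genes of glucose and lactate transport or of flux control with 8, 5 hypoxia-inducible factor (HIF) subunits and prolyl hydroxylases with 7, and 11 non-glycolytic hypoxia targets with 14. No filter on low values was applied, so all 53 clusters were tested. Of these, 14 carry several symbols, so their signal cannot be assigned to the member alone. For 1 value a gene, the brightest cluster with 1 symbol stands for the gene, or, for Aldoa, Bnip3l and Ankrd37, the cluster shared with another symbol.

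Glycolysis splits glucose into pyruvate through a chain of cytosolic enzymes, and lactate dehydrogenase regenerates the NAD+ that the chain consumes. When oxygen is short, the HIF alpha subunits Hif1a and Epas1 escape hydroxylation by the Egln prolyl hydroxylases, pair with Arnt and bind a short DNA core in the promoters and enhancers of target genes. Their targets include most glycolytic enzymes, the glucose transporter Slc2a1 and genes of angiogenesis, mitophagy and collagen hydroxylation. In liver, oxygen falls along the lobule, and glycolytic enzymes are known to be more abundant in the hepatocytes at its low-oxygen end.

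All values are log2 expression values, and changes are Zfp125 minus EV on that scale. A change is followed by its standard error and a mean by its SD, over n = 4 arrays of each kind. Array medians lay between 4.32 and 4.37, and any pair of arrays correlated at 0.977 to 0.984. All 9 single-symbol hepatocyte marker clusters lay above the median of all clusters, 4.34. The secreted proteins albumin, Alb, and transthyretin, Ttr, were the brightest (means of 12.48 and 12.66 in Zfp125 cells and 12.96 and 12.58 in EV cells), while Serpina1a (5.04 in Zfp125 cells and 5.15 in EV cells) and the fetal marker Afp (4.78 in Zfp125 cells and 4.95 in EV cells) were much lower. Of 6 macrophage and leukocyte clusters, 3 lay above that median, Cd14 (7.31 in Zfp125 cells and 7.62 in EV cells), Cd68 and Csf1r, and 3 below it, Ptprc (3.05 in Zfp125 cells and 3.09 in EV cells), Adgre1 and Lyz2. The level of Zfp125 itself is not analysed here, which leaves the group labels without that check.

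Lower levels in Zfp125 cells were spread over several glycolytic enzymes and a few oxygen-response genes. Pgk1, the phosphoglycerate kinase of the first ATP-yielding step of glycolysis, fell by 0.64 ± 0.08 on the log2 scale, and it was the member that passed the test over all clusters (limma, adjusted p = 0.0241). That is 1 of 53 member clusters lower and 0 higher, where 0.123% of all 41345 clusters were called lower and 0.0242% higher. At an unadjusted p under 0.05, 19 member clusters were lower and 1 was higher (4.52% and 4.91% of all clusters). In the fit over 1 cluster a gene (22180 genes, dropping unnamed clusters and those with several symbols), 5 of 30 members fell and 0 rose, where 0.636% of all genes fell and 0.446% rose. These were Pgk1 (adjusted p = 0.00241), Ldha (0.0137), Egln3 (0.0173), Bnip3 (0.0352) and Epas1 (0.0492). Leaving out any 1 array brought the count of members called in that fit to between 2 and 4, and the calls of Epas1 and Bnip3 each ended in 7 of 8 omissions.

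Separation of the arrays gave a wider set that holds these 5 genes. In 9 of the 30 members of that fit, all 4 Zfp125 arrays lay below all 4 EV arrays, and in 0 of 30 all lay above, where 3.58% of 22180 genes were separated downwards and 3.71% upwards. They are the glycolytic enzymes Pfkl, Pfkp, Tpi1, Gapdh, Pgk1 and Ldha, the HIF subunit Epas1, the prolyl hydroxylase Egln3 and the mitophagy receptor Bnip3. The median change was -0.181 over the 30 members and -0.00268 over all 22180 genes. The members were chosen as pathway genes with earlier results of these data known, so these counts describe them and are no test of the group. Over all clusters, 17 of 53 member clusters were separated downwards and 0 upwards (3.03% and 3.2% of all), 9 of the 17 being Gapdh clusters. With the adjustment over clusters with a gene symbol, 4 member clusters fell (0.592% of such clusters fell and 0.434% rose), and over clusters above the median level 3 fell (0.706% fell and 0.416% rose).

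**Figure D1:**
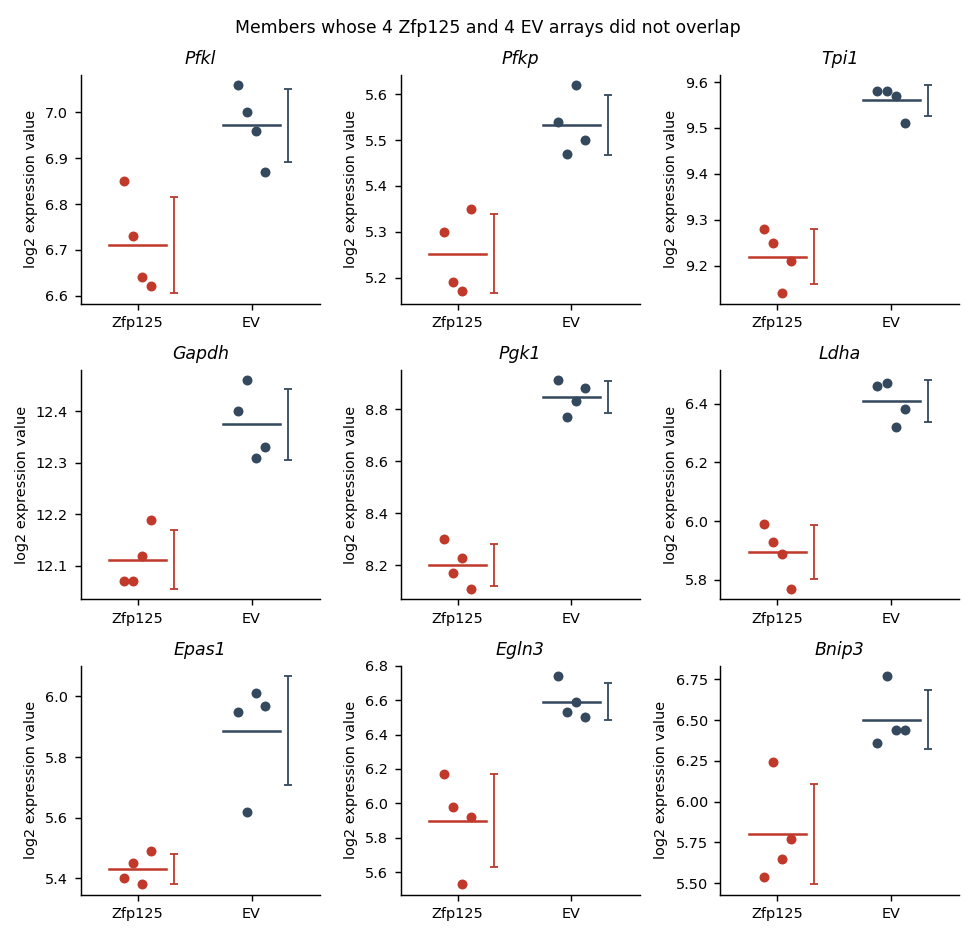
Each panel plots the log2 expression value of 1 gene on the 4 Zfp125 arrays (red, left) and the 4 EV arrays (dark blue, right), with the group mean as a line and the SD as a bar; vertical axes differ between panels and do not start at 0. In these 9 genes every Zfp125 array lies below every EV array, with the widest spread among Zfp125 arrays for Bnip3 and Egln3.

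Promoter sequences are shown for members with the largest negative changes, as the stretch in which HIF cores can be looked for. The windows run from 250 bases before to 50 bases after a RefSeq start site (GRCm38.p6), 5′ to 3′ on the strand of the gene, and capitals mark the hypoxia response element cores ACGTG and GCGTG on either strand. Egln1 is added as the paralog of Egln3, and Tpi1 as a gene with separated groups and no core in its window. Of 2 Ldha windows, the one farther upstream is printed.
Pgk1 (chrX:106186850-106187149, plus strand): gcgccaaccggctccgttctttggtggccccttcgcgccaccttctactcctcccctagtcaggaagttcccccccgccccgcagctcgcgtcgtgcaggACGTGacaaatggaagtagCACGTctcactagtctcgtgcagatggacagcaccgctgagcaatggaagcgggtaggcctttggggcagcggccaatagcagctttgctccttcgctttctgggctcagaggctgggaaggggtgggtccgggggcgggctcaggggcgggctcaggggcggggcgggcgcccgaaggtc
Ldha (chr7:46845554-46845853, plus strand): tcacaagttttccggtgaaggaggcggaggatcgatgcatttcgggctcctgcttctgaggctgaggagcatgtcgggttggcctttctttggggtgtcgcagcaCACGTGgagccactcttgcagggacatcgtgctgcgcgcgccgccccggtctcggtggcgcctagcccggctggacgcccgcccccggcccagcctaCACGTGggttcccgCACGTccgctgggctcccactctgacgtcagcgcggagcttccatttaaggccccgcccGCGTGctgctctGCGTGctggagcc
Bnip3 (chr7:138909457-138909756, minus strand): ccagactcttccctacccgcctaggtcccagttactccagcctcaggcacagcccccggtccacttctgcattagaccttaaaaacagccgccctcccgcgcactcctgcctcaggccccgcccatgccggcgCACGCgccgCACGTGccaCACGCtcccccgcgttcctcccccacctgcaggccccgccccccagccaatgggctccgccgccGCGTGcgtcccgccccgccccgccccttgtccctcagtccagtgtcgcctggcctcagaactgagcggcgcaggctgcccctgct
Egln3 (chr12:54203825-54204124, minus strand): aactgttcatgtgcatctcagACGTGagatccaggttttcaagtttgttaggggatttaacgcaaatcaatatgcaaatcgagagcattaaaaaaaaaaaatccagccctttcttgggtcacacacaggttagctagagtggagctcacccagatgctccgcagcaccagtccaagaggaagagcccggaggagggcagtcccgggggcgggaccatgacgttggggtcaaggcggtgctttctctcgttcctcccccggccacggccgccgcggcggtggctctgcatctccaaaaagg
Egln1 (chr8:124949205-124949504, minus strand): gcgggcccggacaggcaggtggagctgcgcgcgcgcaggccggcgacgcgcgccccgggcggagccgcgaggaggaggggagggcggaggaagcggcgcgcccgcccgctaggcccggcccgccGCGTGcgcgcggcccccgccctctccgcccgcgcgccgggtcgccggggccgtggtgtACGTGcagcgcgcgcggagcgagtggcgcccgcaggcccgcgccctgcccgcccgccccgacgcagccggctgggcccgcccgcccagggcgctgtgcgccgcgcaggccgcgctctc
Tpi1 (chr6:124814109-124814408, minus strand): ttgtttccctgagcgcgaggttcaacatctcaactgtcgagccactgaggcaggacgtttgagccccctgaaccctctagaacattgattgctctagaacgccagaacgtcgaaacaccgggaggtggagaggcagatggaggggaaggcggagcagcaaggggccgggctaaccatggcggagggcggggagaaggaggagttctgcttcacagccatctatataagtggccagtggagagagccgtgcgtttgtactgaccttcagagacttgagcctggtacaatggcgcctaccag

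Such a core was found in 38 of 49 windows of 32 member genes (77.6%), against 43.8% of all 32851 windows. The 49 include windows of Gpi1 and Eno1, which have no expression values here. Some windows of a gene overlap and hold the same core, as in Eno1, Aldoa and Pfkm, so windows are not independent. ACGTG was present in 53.1% of member windows and in 19.6% of all, and GCGTG in 51.0% and 32.4%. The palindrome CACGTG, also the E-box of other factors, holds an ACGTG on each strand and counts once per strand; it was in 10.2% of member windows and in 7.15% of all. Ldha had 7 matches and Bnip3 5, Pgk1 had 2, at 150 and 131 bases before its start, and Egln3 had 1, at 229 bases before it. Genes without separated groups had matches too, with 5 in one window of Hk1, as many as Bnip3, and 4 each in Ankrd37, P4ha2 and Pfkfb3. A match describes the letters of the window and is not a measured binding site, and the members were picked as known hypoxia genes.

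Among glycolytic enzymes, Pgk1 and Ldha had the largest differences. Pgk1 had 8.30, 8.17, 8.23 and 8.11 on the Zfp125 arrays, against 8.91, 8.77, 8.83 and 8.88 on the EV arrays. Every Zfp125 array lay below every EV array by more than the spread within either group, and the level was 1.56-fold lower in Zfp125 cells (95% interval of the log2 change -0.83 to -0.46). Over all clusters, the call of Pgk1 ended on leaving out any 1 of the 8 arrays (adjusted p = 0.0508 to 0.0993), with changes between -0.68 and -0.61. In the fit over 1 cluster a gene it held in all 8 omissions (adjusted p = 0.00566 to 0.0126).

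Ldha, the lactate dehydrogenase subunit that favours lactate formation, had 5.99, 5.93, 5.89 and 5.77 on the Zfp125 arrays, against 6.46, 6.47, 6.32 and 6.38 on the EV arrays. No Zfp125 array reached an EV array, and the mean level was 1.42-fold lower. Its change of -0.51 ± 0.09 did not pass over all clusters (adjusted p = 0.0746) and passed in the fit over 1 cluster a gene, where all 8 omissions of an array kept the call (adjusted p = 0.0291 to 0.0476).

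Triose phosphate isomerase, Tpi1, had 9.28, 9.25, 9.14 and 9.21 on the Zfp125 arrays, against 9.58, 9.58, 9.57 and 9.51 on the EV arrays. The arrays of each group lay close together, and the change was -0.34 ± 0.08 (adjusted p = 0.164 over all clusters and 0.0801 over 1 cluster a gene). It passed under a trended, robust prior (adjusted p = 0.0352).

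Of the 3 phosphofructokinase genes, whose enzyme commits glucose to glycolysis, the liver type Pfkl and the platelet type Pfkp lay lower and the muscle type Pfkm did not. Pfkl had 6.85, 6.73, 6.64 and 6.62 on the Zfp125 arrays, against 7.06, 7.0, 6.96 and 6.87 on the EV arrays. Pfkp had 5.30, 5.19, 5.17 and 5.35 on the Zfp125 arrays, against 5.54, 5.47, 5.62 and 5.50 on the EV arrays. Both pairs of groups were narrowly separated, with changes of -0.26 ± 0.09 (adjusted p = 0.37) and -0.28 ± 0.08 (adjusted p = 0.305). Pfkm had a change of 0.18 ± 0.12 with overlapping groups (95% interval -0.09 to 0.45). The difference between the 3 genes was not tested.

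Glyceraldehyde-3-phosphate dehydrogenase, Gapdh, is represented by 11 clusters, 8 of which also carry the symbol of a Gapdh-like gene or pseudogene, and 1 pair of which holds identical values. They share target sequence and are not independent. Its brightest cluster with the Gapdh symbol alone had 12.07, 12.07, 12.12 and 12.19 on the Zfp125 arrays, against 12.40, 12.46, 12.31 and 12.33 on the EV arrays, a change of -0.26 ± 0.08 (adjusted p = 0.324). In 9 of the 11 clusters the groups did not overlap and the changes lay between -0.26 and -0.23, with means of 11.86 to 12.57 in Zfp125 cells and 12.10 to 12.81 in EV cells. Both other clusters were dimmer. One with the Gapdh symbol alone had a change of -0.05 ± 0.09, and one shared with Gapdh-ps15 had means of 4.43 ± 0.35 in Zfp125 cells and 3.85 ± 0.24 in EV cells, a change of 0.57 ± 0.18 with overlapping groups (adjusted p = 0.344).

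The other enzymes had overlapping groups. Pyruvate kinase, Pkm, averaged 9.70 ± 0.07 in Zfp125 cells and 9.91 ± 0.16 in EV cells, a change of -0.21 ± 0.10 (adjusted p = 0.575). Phosphoglycerate mutase, Pgam1, had changes of -0.19 ± 0.09 and -0.16 ± 0.16 in its 2 clusters. The cluster shared by aldolase, Aldoa, and Aldoart1 had a change of -0.10 ± 0.10. The hexokinases Hk1 and Hk2, which trap glucose as its phosphate, had changes of 0.01 ± 0.08 and -0.10 ± 0.11, with 95% intervals of -0.17 to 0.19 and -0.35 to 0.15. Of the 12 enzymes, 10 had a negative change and the median was -0.233.

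**Figure D2:**
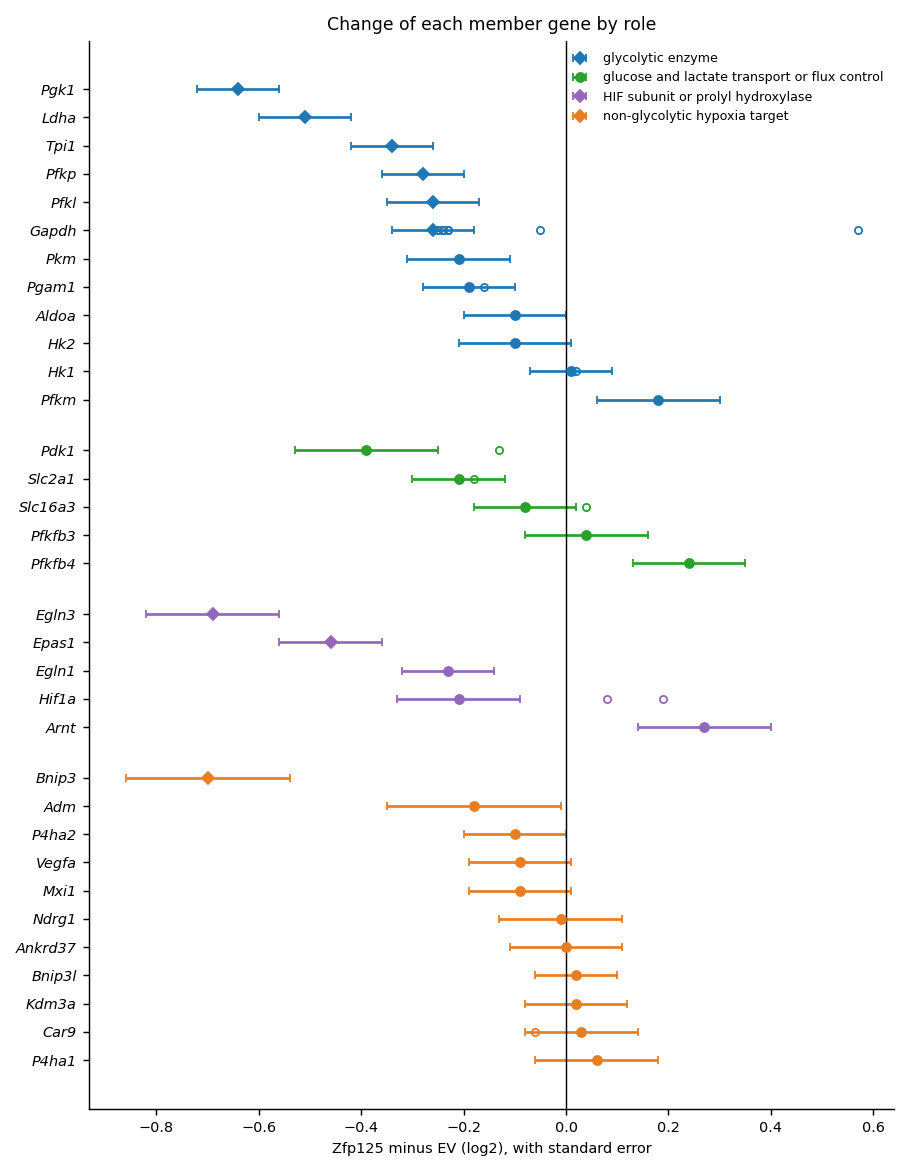
The horizontal axis is the change of each member gene, Zfp125 minus EV on the log2 scale, with its standard error as a bar; genes run down the page by role. Filled symbols are the cluster that stands for the gene (diamonds where the groups do not overlap, circles where they do) and open circles its other clusters. Negative changes prevail among the glycolytic enzymes, whereas the hypoxia targets, Bnip3 apart, lie between -0.18 and 0.06.

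Among the genes that feed glycolysis or steer its products, 0 of 5 passed in either fit and all had overlapping groups. Slc2a1, the basal glucose transporter GLUT1, averaged 6.93 ± 0.09 in Zfp125 cells and 7.15 ± 0.12 in EV cells in its brighter cluster, a change of -0.21 ± 0.09 (adjusted p = 0.533), and -0.18 ± 0.11 in the other. Pdk1, the kinase that keeps pyruvate out of the mitochondrial pyruvate dehydrogenase reaction, had 5.0, 5.45, 4.99 and 5.39 on the Zfp125 arrays, against 5.84, 5.61, 5.40 and 5.55 on the EV arrays. Its groups overlapped through Zfp125 replicate 2 and EV replicate 3, and the change was -0.39 ± 0.14 (adjusted p = 0.411). Its second cluster was dim, with means of 1.96 in Zfp125 cells and 2.09 in EV cells. The lactate exporter MCT4, Slc16a3, had a change of -0.08 ± 0.10. The bifunctional enzymes Pfkfb3 and Pfkfb4, which set the level of an activator of phosphofructokinase, had changes of 0.04 ± 0.12 and 0.24 ± 0.11 (adjusted p = 0.962 and 0.552).

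Within the oxygen-sensing machinery, the HIF alpha subunit Epas1 (HIF-2 alpha) and the hydroxylase Egln3 lay lower in Zfp125 cells. Egln3, also called PHD3, is itself a HIF target. It had 6.17, 5.98, 5.53 and 5.92 on the Zfp125 arrays, against 6.74, 6.53, 6.59 and 6.50 on the EV arrays. The groups were separate, replicate 3 was the lowest Zfp125 array, and the change was -0.69 ± 0.13, a 1.61-fold lower level (adjusted p = 0.112 over all clusters and 0.0173 over 1 cluster a gene). The second call ended without EV replicate 1 or EV replicate 3, with adjusted p-values up to 0.0602. Its paralog Egln1 (PHD2), the main HIF hydroxylase under normal oxygen, averaged 6.32 ± 0.05 in Zfp125 cells and 6.55 ± 0.14 in EV cells, a change of -0.23 ± 0.09 (adjusted p = 0.476). The difference between both paralogs was not tested.

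Epas1 had 5.40, 5.45, 5.38 and 5.49 on the Zfp125 arrays, against 5.95, 5.62, 6.01 and 5.97 on the EV arrays. EV replicate 2 lay nearer the Zfp125 arrays than the other EV arrays did. The change was -0.46 ± 0.10 (adjusted p = 0.164 over all clusters and 0.0492 over 1 cluster a gene), and the second call ended in 7 of 8 omissions of an array (adjusted p up to 0.146). Without EV replicate 2 the adjusted p over 1 cluster a gene was 0.0155. Hif1a, the other alpha subunit, had a change of -0.21 ± 0.12 in its brightest cluster and 0.08 ± 0.17 in a dimmer one (adjusted p = 0.656 and 0.938). Another dim cluster, shared with S100a11-ps and so not assignable to Hif1a alone, had 0.19 ± 0.10 (adjusted p = 0.603). Arnt (HIF-1 beta), the common partner of both alpha subunits, averaged 6.90 ± 0.14 in Zfp125 cells and 6.63 ± 0.25 in EV cells, a change of 0.27 ± 0.13 (adjusted p = 0.593).

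The non-glycolytic hypoxia targets held 1 gene with separated groups. Bnip3, a receptor for the removal of mitochondria, had 5.54, 6.24, 5.65 and 5.77 on the Zfp125 arrays, against 6.36, 6.77, 6.44 and 6.44 on the EV arrays. Replicate 2 was the highest array of each group, and the groups did not overlap, by a narrow margin. The change was -0.70 ± 0.16, a 1.63-fold lower level (adjusted p = 0.172 over all clusters and 0.0352 over 1 cluster a gene). The second call ended in 7 of 8 omissions (adjusted p up to 0.116), and without Zfp125 replicate 2 its adjusted p was 0.00681. The cluster shared by its paralog Bnip3l (NIX) and a pseudogene averaged 8.23 ± 0.06 in Zfp125 cells and 8.22 ± 0.10 in EV cells, a change of 0.02 ± 0.08 with a 95% interval of -0.17 to 0.21. The difference between both paralogs was not tested.

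Each of the other 10 targets had overlapping groups. Vegfa, the angiogenic growth factor, had a change of -0.09 ± 0.10 (95% interval -0.31 to 0.13). Ndrg1, a stress-induced gene, had changes of -0.01 ± 0.17 and -0.01 ± 0.12 in its clusters. The collagen prolyl hydroxylase subunits P4ha1 and P4ha2 had changes of 0.06 ± 0.12 and -0.10 ± 0.10. The histone demethylase Kdm3a had a change of 0.02 ± 0.10, the MYC antagonist Mxi1 had -0.09 ± 0.10 in each of its clusters, and the carbonic anhydrase Car9 had 0.03 ± 0.11 in its brighter cluster. The vasodilator peptide gene Adm was dim, with means of 3.52 in Zfp125 cells and 3.70 in EV cells. The cluster shared by Ankrd37 and Lrp2bp had a change of 0.00 ± 0.11. Over the 11 targets the median change was -0.006, with 6 negative and 5 positive changes.

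Setting the roles side by side, the median over the 12 glycolytic enzymes of the value minus the EV mean of the gene was -0.189, -0.301, -0.237 and -0.185 on the Zfp125 arrays, against 0.052, -0.006, -0.033 and -0.037 on the EV arrays. The groups did not overlap. The same median over the 11 hypoxia targets was -0.004, 0.056, -0.064 and -0.051 on the Zfp125 arrays, against -0.004, -0.012, -0.023 and 0.027 on the EV arrays, and these overlapped. Over the 5 HIF subunits and prolyl hydroxylases, the Zfp125 arrays had -0.261, -0.26, -0.278 and -0.403. The EV arrays had 0.064, -0.184, 0.09 and 0.062, so these groups did not overlap, as for the enzymes. In the 5 genes of transport or flux control the groups overlapped. Among single-symbol genes, 6 of 11 enzymes and 1 of 9 targets were separated downwards, where 3.58% of all 22180 genes were. These 11 enzymes and 9 targets had median changes of -0.26 and -0.09. With Aldoa, Bnip3l and Ankrd37 added through shared clusters, the medians were -0.233 and -0.006. The difference between enzymes and targets is given as a description, with no test. Over the 12 enzymes and 11 targets, quantile normalization again and median centring kept the sign of both medians (enzymes -0.253 and -0.239, targets -0.006 and -0.012).

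**Figure D3:**
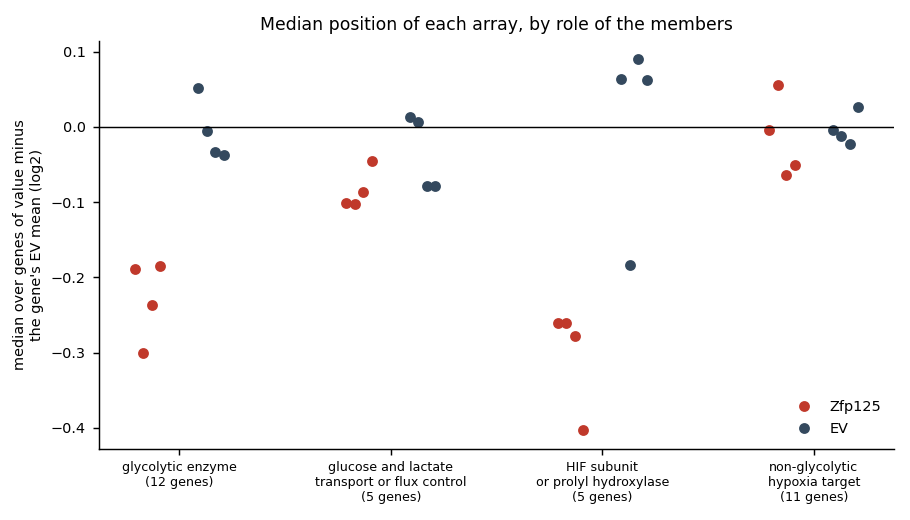
Each point is 1 array, and its height is the median over the genes of a role of the log2 value minus the EV mean of that gene; Zfp125 arrays are red and left, EV arrays dark blue and right. Glycolytic enzymes lie between -0.301 and -0.185 on Zfp125 arrays and between -0.037 and 0.052 on EV arrays, while the hypoxia targets of both groups overlap around 0. HIF subunits and prolyl hydroxylases are separated too, between -0.403 and -0.26 on Zfp125 arrays and between -0.184 and 0.09 on EV arrays.

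The mean level over 9 hepatocyte marker clusters of 8 genes was 8.71 to 8.76 on the Zfp125 arrays, against 8.83 to 8.88 on the EV arrays. None of the 9 passed over all clusters, and 2 were lower and 0 higher at an unadjusted p under 0.05, Alb (-0.48 ± 0.08) and the transcription factor gene Hnf4a (-0.38 ± 0.08). Of all clusters, 4.52% were lower and 4.91% higher at that threshold. Alb fell in the fit over 1 cluster a gene, as 1 of 8 marker genes, where 0.636% of all genes fell. The cluster shared by the hepatocyte marker Trf and Srprb, outside these 9, had a change of -0.24 ± 0.07 with separated groups (limma over all clusters, adjusted p = 0.326). Ttr had a change of 0.08 ± 0.10, the keratin gene Krt8 0.06 ± 0.09, and Krt18 -0.01 ± 0.08 and 0.03 ± 0.09 in its clusters. The 6 macrophage and leukocyte clusters averaged 4.61 to 4.69 on the Zfp125 arrays and 4.63 to 4.82 on the EV arrays. At an unadjusted p under 0.05 (limma), 1 was lower and 0 were higher (4.52% and 4.91% of all clusters). That was Cd14, with a change of -0.31 ± 0.08 and separated groups (adjusted p = 0.221). The cluster shared by Cd74 and Mir5107, outside these 6, had a change of -0.58 ± 0.09 with separated groups (adjusted p = 0.0658). The mean levels of endothelial and of fibroblast markers overlapped between groups (3.92 to 4.09 on Zfp125 arrays and 4.00 to 4.10 on EV arrays, and 4.23 to 4.39 on Zfp125 arrays and 4.22 to 4.34 on EV arrays). The part of the hepatocyte and macrophage markers in the results above was not tested. In RNA from whole cultures, fewer cells with a transcript and less transcript per cell cannot be told apart.

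Other genes of these pathways were read from further lists. Of 33 further genes of glycolysis, pyruvate and lactate with a single-symbol cluster, 0 of 35 clusters passed over all clusters, and the median change was -0.085. At an unadjusted p under 0.05 (limma), 5 were lower and 1 higher (4.52% and 4.91% of all clusters). Groups were separated downwards in 4 of the 35 clusters and upwards in 2 (3.03% and 3.2% of all). In the fit over 1 cluster a gene 3 of 33 fell and 1 rose (0.636% and 0.446% of all genes). The pyruvate and lactate carrier MCT2, Slc16a7, had 5.04, 5.16, 5.12 and 5.22 on the Zfp125 arrays, against 5.96, 5.58, 6.13 and 6.07 on the EV arrays. That change of -0.80 ± 0.12 was larger than that of any member (adjusted p = 0.0575 over all clusters and 0.00467 over 1 cluster a gene). The mitochondrial pyruvate carrier subunit Mpc1 changed by -0.58 ± 0.10 in the brighter of its clusters (adjusted p = 0.0126 over 1 cluster a gene) and had -0.08 ± 0.09 in the other. The glycerol-3-phosphate dehydrogenase Gpd1 changed by -0.49 ± 0.09 (0.0187), with -0.20 ± 0.10 in its dimmer cluster. The hepatocyte glucose transporter GLUT2, Slc2a2, rose by 0.45 ± 0.10 (0.0444), with 10.43, 10.48, 10.41 and 10.16 on the Zfp125 arrays, against 9.95, 9.79, 9.97 and 9.96 on the EV arrays.

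Of 32 further hypoxia-induced genes, 0 of 34 clusters passed over all clusters, and the median change was -0.073. At an unadjusted p under 0.05 (limma), 6 were lower and 1 higher (4.52% and 4.91% of all clusters). Aldoc and Slc2a3 are also in the glycolysis, pyruvate and lactate list, and Aldoc counts among the lower clusters of both lists. Groups were separated downwards in 7 of the 34 clusters and upwards in 2 (3.03% and 3.2% of all). Downward separation was thus more frequent here than in the further glycolysis, pyruvate and lactate list (4 of 35), a difference that was not tested. In the fit over 1 cluster a gene 2 of 32 fell and 0 rose (0.636% and 0.446% of all genes). Ddit4, an inhibitor of the mTORC1 kinase, fell by 0.48 ± 0.11 (adjusted p = 0.0444) and the glycogen branching enzyme Gbe1 by 0.52 ± 0.12 (adjusted p = 0.0393). Ddit4 had 7.12, 7.30, 7.09 and 6.91 on the Zfp125 arrays, against 7.57, 7.72, 7.44 and 7.62 on the EV arrays, so its groups did not overlap. Of 16 further oxygen sensing genes and HIF regulators, 0 passed in either fit. Among their 17 clusters, 2 were lower and 1 higher at an unadjusted p under 0.05 (limma, 4.52% and 4.91% of all clusters). Their groups were separated downwards in 2 clusters and upwards in 1 (3.03% and 3.2% of all).

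**Figure D4:**
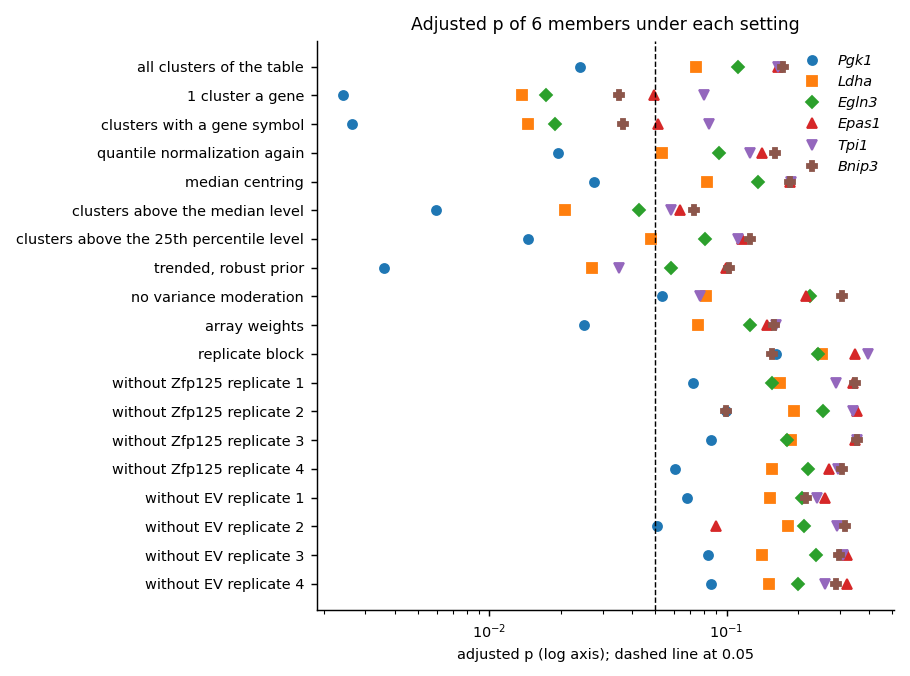
The horizontal log axis gives the Benjamini-Hochberg adjusted p of 6 members, and each line down the page is 1 setting of the fit; the dashed line marks 0.05. Pgk1 lies left of the line at 0.0241 over all clusters and right of it without moderation, with the replicate block and on leaving out any array, and the 5 other members lie right of it over all clusters.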

How the data were processed

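The authors deposited log2 expression values of 41345 transcript clusters on 8 arrays. That the scale is log2 follows from the range of the values. Per the submitters' processing notes, the tools were Affymetrix Expression Console and Transcriptome Analysis Console; their versions and the normalization are not given in the sources. Values were taken as deposited, and no detection call was used, so a dim value may be background.

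Clusters were named through the platform annotation (23521 with 1 symbol, 1814 with several, 16010 unnamed here), and symbols were brought up to date through Entrez identifiers (RefSeq genes, GRCm38.p6). The test was limma's moderated linear model (version 3.58.1, R 4.3.3) over all 41345 clusters, two-sided, with p-values adjusted by Benjamini-Hochberg and a threshold of 0.05. This fit covers clusters with several symbols; the fit over 1 cluster a gene (22180 genes, brightest single-symbol cluster) is the first alternative. The fit was tested on simulated data. It recovered 13.4% of the clusters set to differ by 0.5 on the log2 scale, 61.2% at 1 and 95.5% at 2. Of its 122 calls there, 9 were false. Precision is limited by the 4 arrays per group. Promoter windows are from RefSeq (GRCm38.p6); those used here cover 32 of 35 members. Plots were drawn with matplotlib 3.10.9.

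Members, lists and roles were chosen with earlier results of these data known. All members are named. Of further lists, genes called in either fit or shared between lists are named, plus cell type markers. Figures and values of Pfkl, Pfkp, Tpi1 and Gapdh follow from groups that did not overlap. Common reference genes and omissions of arrays in the fit over 1 cluster a gene were added after seeing the data.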

Additional observations from a re-analysis of the deposited data

Results flagged for a closer look

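Among 106 groups of 4 arrays (53 clusters, each group), 4 held an array far from the others by Dixon's test at its 95% critical value, which chance flags in about 1 in 20 groups. Bnip3l had 8.32 on Zfp125 replicate 2, while the other Zfp125 arrays lay at 8.20 to 8.21. Epas1 had 5.62 on EV replicate 2, with the other EV arrays at 5.95 to 6.01. Tpi1 had 9.51 on EV replicate 4, with the others at 9.57 to 9.58. The cluster shared by Hk1 and Hk1os had 5.22 on EV replicate 1, with the others at 5.37 to 5.40.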

How the results depend on the processing

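The count of calls depends on which features share the adjustment. Over all clusters 61 were called, of them 1 member lower. Over 1 cluster a gene 240 were called (5 members lower), over clusters with a gene symbol 260 (4), above the median level 232 (3), above the 25th percentile level 94 (2), and with a trended, robust prior 196 (3). Without variance moderation 4 clusters and 0 members were called by limma's linear model (at an unadjusted p under 0.05, 3918 clusters in either direction, and 21 member clusters lower and 1 higher). No member was called higher in any of these settings. With the replicate number as a block 0 clusters and 0 members were called (at an unadjusted p under 0.05, 3530 in either direction, and 18 member clusters lower and 1 higher), and Pgk1 had an adjusted p of 0.161. The labels do not say whether same-numbered arrays were handled together. Their deviations from the group means correlated by -0.041 to 0.03, and not every array correlated best with its own number. Such correlations cannot exclude a pairing. On leaving out 1 array the count over all clusters was 16 (without Zfp125 replicate 1) to 61, with 0 members lower or higher in each of the 8 omissions. It was 17 without Zfp125 replicate 2, 20 without Zfp125 replicate 3, 39 without EV replicate 1, 29 without EV replicate 3 and 26 without EV replicate 4. In the fit over 1 cluster a gene it was 109, 116, 134 and 187 on leaving out Zfp125 replicates 1 to 4 in turn and 164, 165, 135 and 139 for EV replicates 1 to 4, with 2 to 4 members lower. The median change of the enzyme clusters was -0.254 to -0.217 in the first fit and -0.275 to -0.233 in the second. That of the hypoxia target clusters, -0.033, was -0.07 to 0.018 over all clusters, with the sign turned without Zfp125 replicate 3 (0.018), and -0.071 to -0.009 in the second. The other alternatives gave the enzyme median -0.26 to -0.226 and the target median -0.09 to -0.007. Of 1164 member cluster values under the alternatives, 1126 kept their side of the threshold, 10 lost the call, all of Pgk1, and 28 gained it, and 0 called values changed sign. The causes were not tested. Dim clusters have no detection call, which limits Adm, the dimmer clusters of Hif1a and Pdk1, and Car9.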

Other observations

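Gapdh is widely used as a reference gene for normalising transcript measurements. Of its 11 clusters, 9 lay lower in Zfp125 cells with separated groups, 2 of its 3 single-symbol clusters among them (3.03% of all clusters were separated downwards). Other common reference genes, chosen after the Gapdh values were seen, had overlapping groups in all 11 of their single-symbol clusters (8 genes), with changes between -0.31 and 0.12 and a median of 0.004. The most negative were -0.31 ± 0.17 in the brighter cluster of Rplp0 (-0.03 ± 0.11 in the other) and -0.24 ± 0.12 in Hprt. Actb averaged 10.02 ± 0.14 in Zfp125 cells and 10.04 ± 0.05 in EV cells, a change of -0.02 ± 0.09 (SD of means and standard error of the change, n = 4). Of 2 clusters shared by the reference gene Ppia and another symbol, 1 was separated downwards too, with 9.33 ± 0.01 in Zfp125 cells and 9.44 ± 0.10 in EV cells, a change of -0.11 ± 0.08 (adjusted p = 0.732 by limma over all clusters). B2m averaged 11.48 ± 0.02 in Zfp125 cells and 11.36 ± 0.09 in EV cells, a change of 0.12 ± 0.08. None of the 11 single-symbol clusters passed limma's test over all clusters, and 0 had an unadjusted p under 0.05.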
